A study of Mus musculus with 9 samples.

Results

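The Zfp36 family of zinc finger RNA-binding proteins was examined in immortalized mouse bone marrow-derived macrophages (BMDMs). Its members were chosen by gene name as Zfp36, which encodes tristetraprolin (TTP), Zfp36l1 and Zfp36l2, and all 3 were found among the 25494 genes of the deposited library table. Zfp36l3, the remaining mouse gene of this family, had no row in that table. TTP-deficient primary BMDMs carrying the disrupted allele Zfp36tm1Pjb had been immortalized with the oncogenes hcmyc and hRasG12V, selected for macrophage surface antigens, and transduced with a vector whose insert is switched on by doxycycline. The insert was GFP alone, a fusion of GFP to murine TTP, or a fusion of GFP to the mutant TTP-AA. Per the methods, both fusions carry the coding sequence of TTP without its 3'UTR. The 3 groups are called GFP, TTP and TTP-AA here. All received doxycycline at 1 µg/ml for 6 h and LPS at 1 µg/ml for 1 h, so there was no group without LPS and none with an intact Zfp36 gene. Each group held 3 libraries, 9 in all, of RNA depleted of ribosomal RNA, and per the methods transduced cells were sorted for GFP. The groups are different cell lines, so the effect of an insert cannot be told apart from other differences between the lines.

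Proteins of this family bind AU-rich elements in the 3'UTRs of mRNAs through a pair of CCCH zinc fingers, each holding a zinc ion by 3 cysteines and 1 histidine. They recruit the CCR4-NOT complex, which shortens the poly(A) tail, and the bound mRNA is then degraded or less translated. In macrophages TTP is induced by LPS and limits cytokine mRNAs such as Tnf, and it also acts on its own mRNA. The kinase MK2, activated by p38 MAPK, phosphorylates TTP at serines 52 and 178, which allows binding of 14-3-3 proteins and keeps TTP from recruiting the deadenylase. TTP-AA carries the changes S52A and S178A and cannot be phosphorylated there.

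The zinc finger regions are the stretches by which the members are recognized as a family, and their coding sequences in GENCODE M21 (GRCm38) are shown from 6 codons before the first zinc-binding cysteine to the last histidine. Capitals mark the 8 codons of the cysteines and histidines that bind zinc.
Zfp36, chr7:28378044-28378235, minus strand: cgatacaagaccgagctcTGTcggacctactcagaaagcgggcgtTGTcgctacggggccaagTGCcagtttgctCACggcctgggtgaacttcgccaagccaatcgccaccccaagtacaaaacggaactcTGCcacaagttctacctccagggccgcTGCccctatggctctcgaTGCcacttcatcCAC
Zfp36l1, chr12:80110075-80110266, minus strand: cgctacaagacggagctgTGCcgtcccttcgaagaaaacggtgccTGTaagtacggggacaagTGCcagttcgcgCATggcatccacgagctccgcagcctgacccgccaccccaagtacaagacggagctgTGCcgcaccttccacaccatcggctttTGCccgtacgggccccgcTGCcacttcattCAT
Zfp36l2, chr17:84186554-84186745, minus strand: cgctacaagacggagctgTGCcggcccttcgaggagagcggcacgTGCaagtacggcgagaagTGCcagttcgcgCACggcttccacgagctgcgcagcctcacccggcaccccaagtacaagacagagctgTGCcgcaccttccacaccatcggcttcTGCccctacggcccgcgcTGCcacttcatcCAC

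Each stretch was 192 bases long and began at codon 95 of 319 in Zfp36, codon 114 of 338 in Zfp36l1 and codon 155 of 484 in Zfp36l2. Zfp36l1 and Zfp36l2 were identical at 170 of these 192 bases (88.5%). Zfp36 was identical to Zfp36l1 at 133 bases (69.3%) and to Zfp36l2 at 135 bases (70.3%). The longest run that any pair of members shared over their whole transcripts was 32 bases, between Zfp36l1 and Zfp36l2, and reads were 50 bases long. No read length of sequence was therefore shared between members, although shorter alignments after trimming were not examined.

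The codons changed in TTP-AA lie on either side of the zinc fingers. They are shown in the unmutated Zfp36 sequence of the same annotation, with the serine codon in capitals among 9 codons.
S52A, chr7:28378350-28378376, minus strand: ggccgctccactAGCctggtggagggc
S178A, chr7:28377972-28377998, minus strand: cgacaaagcatcAGCttctccggcttg

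The mRNAs of all 3 members carry the heptamer TATTTAT, the core of the AU-rich element that these proteins bind, in their own 3'UTRs. It was searched on the transcript strand, with overlaps allowed, in 1 transcript per gene (the one with the longest coding sequence). Each window below holds the heptamer in capitals with 9 bases on either side.
Zfp36 site 1, chr7:28376968-28376992, minus strand: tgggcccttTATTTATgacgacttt
Zfp36 site 2, chr7:28376953-28376977, minus strand: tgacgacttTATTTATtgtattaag
Zfp36 site 3, chr7:28376928-28376952, minus strand: attttatagTATTTATatatattgg
Zfp36l1 site 1, chr12:80108424-80108448, minus strand: atcaaaacgTATTTATtgccaaact
Zfp36l1 site 2, chr12:80108383-80108407, minus strand: ttttgttcaTATTTATcgggatgac
Zfp36l1 site 3, chr12:80108169-80108193, minus strand: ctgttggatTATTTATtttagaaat
Zfp36l2 site 1, chr17:84184916-84184940, minus strand: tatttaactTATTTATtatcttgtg
Zfp36l2 site 2, chr17:84184868-84184892, minus strand: tccatactgTATTTATcgagtatga
Zfp36l2 site 3, chr17:84184682-84184706, minus strand: tgtatgtaaTATTTATttcattaat

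Every member thus had 3 heptamers. Of the 16497 3'UTRs searched, 25.5% held at least 1 and 3.27% held 3 or more. Among 3'UTRs of 0.8 to 1.2 times its length, 3 or more were found in 1.14% for Zfp36 (3'UTR of 774 bases), 3.77% for Zfp36l1 (1835 bases) and 3.72% for Zfp36l2 (1822 bases). The sites differed in position. In Zfp36 they began 200, 185 and 160 bases before the transcript's 3' end, and the first and second windows overlap. In Zfp36l1 they began 686, 645 and 431 bases before it, and in Zfp36l2 1001, 953 and 767 bases before it. The pentamer ATTTA, which lies inside the heptamer, was found 3 times in the 3'UTR of Zfp36, 9 times in that of Zfp36l1 and 5 times in that of Zfp36l2. A match is a description of the sequence and not a measured binding site.

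**Figure D1:**
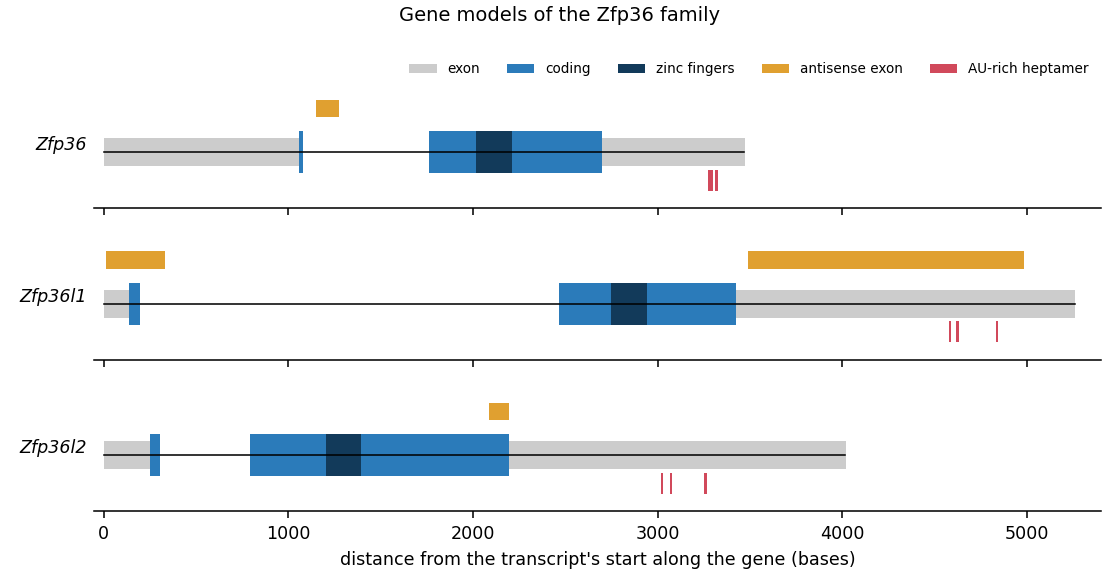
Gene models of Zfp36, Zfp36l1 and Zfp36l2 in gene orientation, with the distance from the transcript's start in bases on the x axis. Grey boxes are exons, blue boxes coding exons, dark boxes the zinc finger region, red ticks below the 3 heptamers of each 3'UTR, and orange boxes above the exons of a gene on the other strand, which cover all 3 heptamers of Zfp36l1 but none of Zfp36 or Zfp36l2.

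A gene on the opposite strand overlapped each member, and the sources do not say whether reads were counted by strand. Zfp36 (ENSMUSG00000044786, chr7:28376784-28380253, minus strand) shared 125 of 3470 exon bases (3.60%) with the antisense gene Gm44710. Those bases lie in the intron of the transcript drawn and are exonic only in another transcript. Zfp36l2 (ENSMUSG00000045817, chr17:84183931-84187947, minus strand) shared 105 of 3530 exon bases (2.97%) with the antisense gene AC132455.1, near the end of its coding sequence. Neither antisense gene had a row in the library table. Zfp36l1 (ENSMUSG00000021127, chr12:80107754-80113013, minus strand) shared 1672 of 2990 exon bases (55.9%) with the lincRNA gene Gm26669, which was listed at 0.198 to 0.836 fitted counts per library. The coding part of its last exon lies outside that overlap. Of 3072 stretches of 50 bases in the transcripts of Zfp36l1, 96 (3.125%) also occurred in the pseudogene Zfp36l1-ps, whereas none of the 3481 of Zfp36l2 occurred in another gene on the same strand. For Zfp36 61 of 3468 (1.76%) did, spread over transcripts of 45 other genes, and 142 (4.09%) occurred on the other strand in transcripts of 71 genes. On the other strand 1576 stretches of Zfp36l1 (51.3%) lay in Gm26669 and 56 of Zfp36l2 (1.61%) in AC132455.1.

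The values were the authors' fitted counts and not the counts themselves. After genes and libraries were centred, only 4 singular values of the log2 table differed from 0, against 8 for 9 libraries that vary freely. Each value was thus a library factor times a term for the replicate number and a term for the group. Such values carry no scatter between replicates, so no test could be made from them and every difference below is a description. A counting error, from the summed fitted counts alone, is given as the least error a difference can have. The fitted sums ran from 21482954 to 102613526 counts per library, with TTP-AA replicate 3 the highest and the other 8 libraries at or below 38032238. A scaled value is a fitted count divided by its library's factor. Of 8 macrophage markers fixed for the check of cell type, 7 had a mean scaled value of at least 50, among them Csf1r at 21229, Cd68 at 9796 and the macrophage antigen gene Adgre1 (listed as Emr1) at 18095. Mertk was at 18.5. Markers of fibroblasts and lymphocytes were at 1.34 or less where listed, and the highest neutrophil marker was Camp at 13.9.

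The disrupted gene was examined first. Zfp36 was present in the GFP libraries, which hold no TTP transgene, with scaled values of 1744, 1423 and 890.2 in replicates 1, 2 and 3. In the TTP libraries it was at 1787, 1447 and 913, and in the TTP-AA libraries at 2828, 2298 and 1443. At a given replicate number TTP-AA was above GFP and TTP, an order that the fit makes the same at all replicate numbers, so it is no replication. The lowest TTP-AA library lay below the highest GFP and TTP libraries. Reads of the disrupted gene and of the transgene are counted under the same name and cannot be told apart, nor can fewer cells of a type and less RNA per cell in these bulk samples.

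On the log2 scale Zfp36 differed by 0.03 between the libraries labelled TTP and GFP (counting error 0.03), a ratio of 1.02. Its level thus did not separate the libraries labelled TTP from those labelled GFP. Because this row mixes the disrupted gene with the transgene, it neither bears out nor contradicts the label of the TTP libraries. TTP-AA was 0.69 above GFP (counting error 0.03, a ratio of 1.62) and 0.66 above the libraries labelled TTP (counting error 0.03, a ratio of 1.58). With library factors solved from the deposited mean normalized count these differences became 1.12 and 1.05, while the median of all genes moved by 0.42 and 0.38. Among the 11120 genes with a mean scaled value of at least 50, 2.26% lay further up in TTP-AA vs GFP and 4.49% in TTP-AA vs TTP. A log2 difference of 0.5 or more upwards was reached by 4.42% of these genes in TTP-AA vs GFP, by 7.32% in TTP-AA vs TTP and by 1.43% in TTP vs GFP. Zfp36 was among them in both comparisons of TTP-AA and not in TTP vs GFP.

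Zfp36l2, a paralog known for roles in lymphocyte and red cell development, was the most abundant member. Its scaled values were 6898, 4379 and 3838 in GFP, 5118, 3225 and 2851 in TTP and 4491, 2839.8 and 2498 in TTP-AA. The order of the groups was thus the reverse of that of Zfp36 at its ends, with GFP highest and TTP-AA lowest, although the groups overlapped when replicate numbers were disregarded and 1 of the scalings tried put TTP-AA above TTP. The fit sets the same order at each replicate number. TTP-AA was 0.62 below GFP on the log2 scale (difference -0.62, counting error 0.02), that is, GFP was 1.54 times TTP-AA. The libraries labelled TTP stood between them. Their difference from GFP was -0.43 (counting error 0.02) and that of TTP-AA from them was -0.19 (counting error 0.02), which turned to 0.20 with the library factors solved from the deposited mean normalized count. Under those factors TTP-AA vs GFP was -0.20 and no longer past -0.5. Relative to the all-gene median the differences of Zfp36l2 were -0.44, -0.62 and -0.17 in TTP vs GFP, TTP-AA vs GFP and TTP-AA vs TTP, which any scaling of whole libraries leaves the same by construction.

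Only the difference of TTP-AA from GFP reached 0.5 downwards for Zfp36l2 among these 3 comparisons. Of all 11120 genes, 3.17% were at -0.5 or below in that comparison, 3.17% in TTP vs GFP and 4.86% in TTP-AA vs TTP. Genes that lay further down than Zfp36l2 made up 1.65% in TTP-AA vs GFP, 4.15% in TTP vs GFP and 25.6% in TTP-AA vs TTP. Its value in the last comparison was thus within the bulk of genes. The medians over all these genes were 0.00, -0.01 and -0.01 in TTP vs GFP, TTP-AA vs GFP and TTP-AA vs TTP. GFP is shared by both comparisons against it, and TTP-AA and TTP by the others, so these values are not independent of each other.

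**Figure D2:**
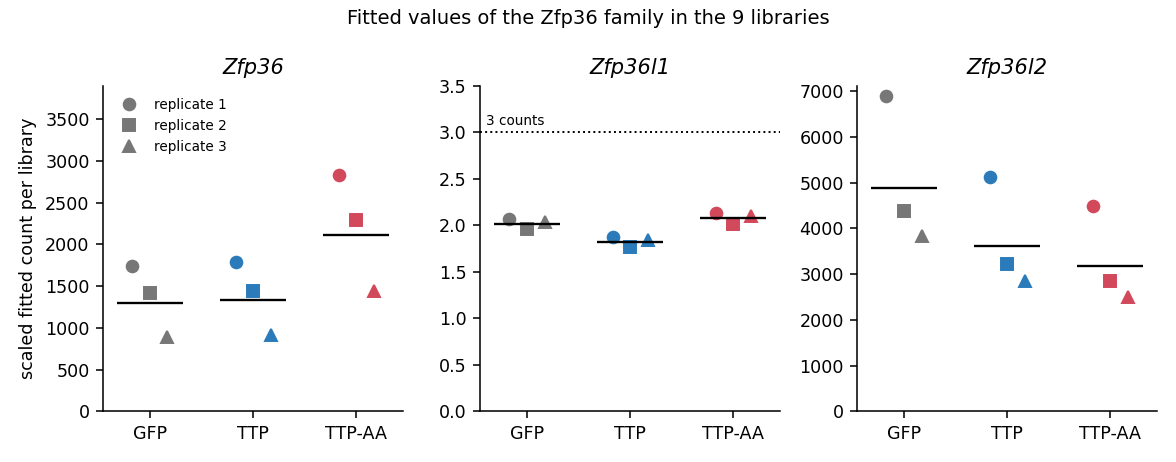
Scaled fitted counts of each family member in the 9 libraries (y axis, linear from 0, a separate scale per gene), by group, with a symbol for each replicate number and a line at the group's geometric mean. Zfp36 has means of 1303, 1332 and 2109 in GFP, TTP and TTP-AA, Zfp36l2 has 4876, 3610.5 and 3170.0, and every Zfp36l1 value is below the dotted line at 3 counts.

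Zfp36l1, a paralog that acts with Zfp36l2 in lymphocyte development, was at the edge of what the table can show. Its fitted counts were 1.14 to 5.93 per library and 20.0 in all 9 together, and its scaled values were 1.77 to 2.13. All scaled values were under the floor of 3 counts in GFP, TTP and TTP-AA alike, so no fold was computed. It was also in none of the 3 comparison tables, in each of which Zfp36 and Zfp36l2 were listed with the authors' mean normalized counts of 1644 and 4020.0. The near identity of its values between libraries is a property of such fitted values. Differences between TTP-AA and TTP had a standard deviation of 0.10 over the 2647 genes with a mean from 1 to 3, against 0.41 over the 11120 genes at 50 or more. Reads over the 1318 exon bases that Gm26669 does not cover were not counted apart. If every count of Zfp36l1 fell there, its level would be 0.0361 to 0.0457 per kilobase and 1000000 counts, an upper bound.

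**Figure D3:**
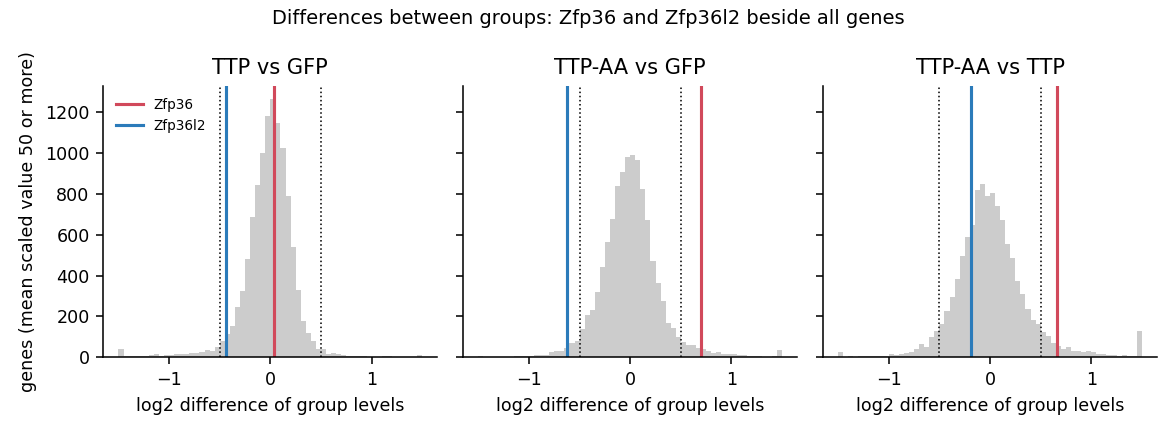
Histograms of the log2 difference of group levels (x axis) over 11120 genes (y axis, number of genes) for TTP vs GFP, TTP-AA vs GFP and TTP-AA vs TTP, values beyond the axis being put in the end bins, with Zfp36 in red, Zfp36l2 in blue and dotted lines at -0.5 and 0.5. Zfp36 lies at 0.03, 0.69 and 0.66 and Zfp36l2 at -0.43, -0.62 and -0.19, the last of which turned to 0.20 under 1 other scaling.

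Replicate number moved both expressed members by more than group did. The fit gives a replicate number the same offset in each group, and for Zfp36 replicate 1 was 0.42 above, replicate 2 0.12 above and replicate 3 0.55 below their mean (offsets of 0.42, 0.12 and -0.55 on the log2 scale). The span of 0.97 amounts to a ratio of 1.96 and is 1.40 times the largest difference between groups. For Zfp36l2 the offsets were 0.50, -0.16 and -0.34, a span of 0.85 and 1.36 times the largest difference between groups. Of the 11120 genes, 95.3% had a smaller span than Zfp36 and 93.0% a smaller span than Zfp36l2, and the median span was 0.32. Both members were thus highest in replicate 1 and lowest in replicate 3 in all groups. Per the methods the model had a term for library date, and which dates stood behind the replicate numbers is not given in the sources used here.

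**Figure D4:**
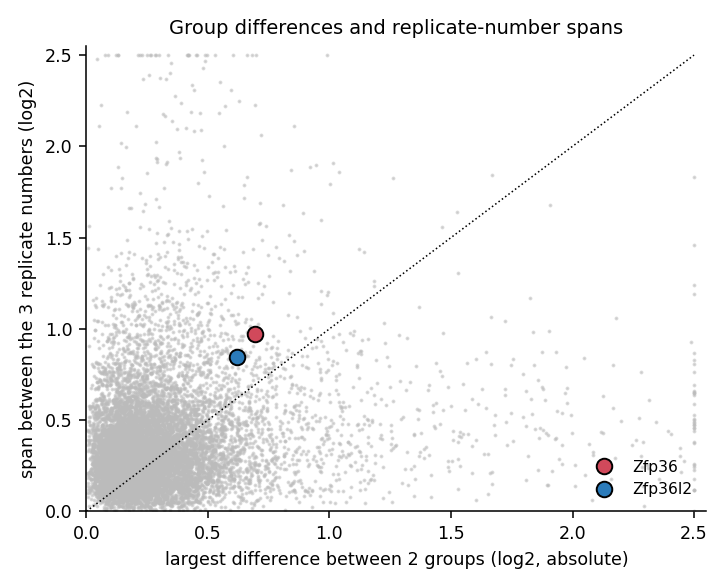
Span between the 3 replicate numbers (y axis, log2) against the largest absolute difference between 2 groups (x axis, log2) for 11120 genes in grey, values above 2.5 being drawn at 2.5, with equality dotted. Zfp36 (0.69 and 0.97) and Zfp36l2 (0.62 and 0.85) both lie above the line.

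Relative abundance of the paralogs was compared per length, as the fitted count per kilobase of exon and 1000000 fitted counts of the library (per-length level), in which the library factor cancels. Since the transgenes lack the 3'UTR of Zfp36, reads from them in TTP and TTP-AA can fall on its coding bases only, and a level per exon length averages over both parts of the gene. Zfp36 was at 10.4 in GFP, 10.6 in TTP and 16.7 in TTP-AA (geometric means of 3 libraries). Zfp36l2 was at 38.2, 28.3 and 24.7, and Zfp36l1 at 0.0187, 0.0169 and 0.0191. The order was Zfp36l2, Zfp36 and Zfp36l1 in all 3 groups. The libraries of Zfp36l2 and Zfp36 did not overlap in GFP, where they spanned 30.3 to 55.8 and 7.14 to 14.3, or in TTP, where they spanned 22.3 to 41.3 and 7.25 to 14.7. In TTP-AA they did, at 19.5 to 36.0 and 11.5 to 23.1.

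The ratio of Zfp36l2 to Zfp36 per exon length was 3.68 in GFP, 2.67 in TTP and 1.48 in TTP-AA. By replicate number it was 3.89, 3.02 and 4.24 in GFP, 2.82, 2.19 and 3.07 in TTP, and 1.56, 1.21 and 1.70 in TTP-AA. The ratio in GFP was 2.49 times that in TTP-AA and 1.38 times that in the libraries labelled TTP. Since both genes share a library's factor, this ratio does not depend on the scaling. It does depend on the length used. With coding length in place of exon length the ratio was 2.47 in GFP, 1.79 in TTP and 0.99 in TTP-AA, so that Zfp36l2 and Zfp36 then stood level in TTP-AA. The counts divided were still those of the whole gene, 3'UTR included, so this is not a level of the coding part.

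The 3 members together summed to a per-length level of 48.6 in GFP, 38.9 in TTP and 41.4 in TTP-AA. Zfp36 made up 21.4% of that sum in GFP, 27.3% in TTP and 40.3% in TTP-AA. Zfp36l2 made up 78.6%, 72.7% and 59.6%. Zfp36l1 contributed 0.0384%, 0.0434% and 0.0462%. These shares hold for exon length, which for Zfp36 (3470 bases) takes in the intron of the transcript drawn (2790 bases). With the length of the longest coding transcript Zfp36 made up 25.3% in GFP, 31.8% in TTP and 45.7% in TTP-AA. With coding length it made up 28.8%, 35.8% and 50.2%, again from counts over the whole gene.

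Other proteins acting on AU-rich or related elements were set beside the family. They include the stabilizing protein HuR (Elavl1), the decay factors KSRP (Khsrp) and AUF1 (Hnrnpd), the translational repressors TIA-1 and TIAR (Tia1, Tial1), CUGBP1 (Celf1), and regnase-1 and roquin-1 (Zc3h12a, Rc3h1), which act on stem-loops of inflammatory mRNAs. Zfp36l2 was the highest of these 11 genes per exon length in every group. This order depends on the length used, since exon length was 3530 bases for Zfp36l2, 10363 for Elavl1 and 15750 for Tia1. Before division by length Elavl1 had a higher mean scaled value (5529) than Zfp36l2 (4015). Other lengths were tried only for the family members. Khsrp came next at 20.7 in GFP, 20.3 in TTP and 21.6 in TTP-AA. Its libraries lay below those of Zfp36l2 in GFP, at 15.1 to 26.1, and overlapped them in TTP and TTP-AA. Zfp36 was in place 5 in GFP and TTP and in place 4 in TTP-AA. Its neighbours in GFP were Zc3h12a at 13.7 and Rc3h1 at 10.2, and in TTP-AA Zc3h12a at 17.1 and Elavl1 at 14.6, and its libraries overlapped those of each of these neighbours. Zfp36l1 was in the last place in all groups, below Tia1 at 1.84 to 2.19.

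**Figure D5:**
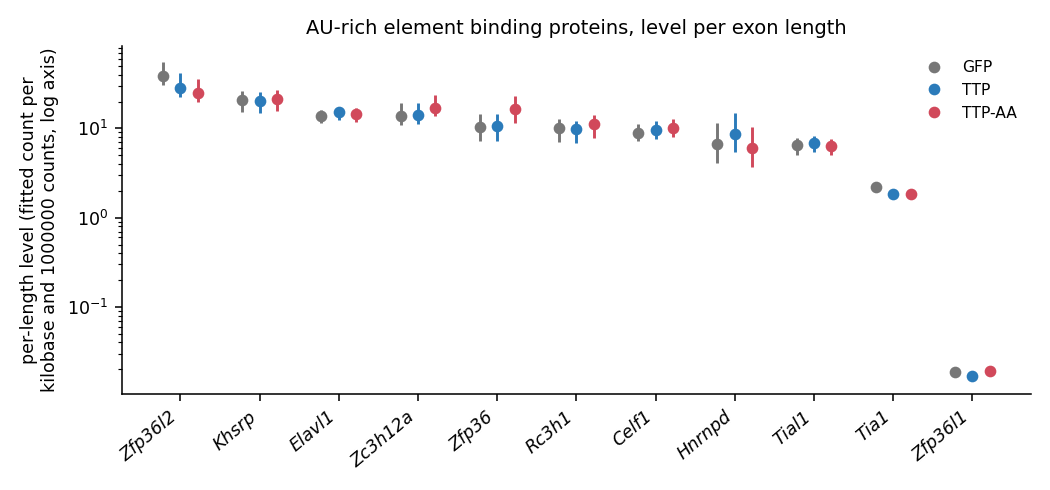
Per-length level, the fitted count per kilobase of exon and 1000000 counts (y axis, log scale), for the Zfp36 family and 8 other proteins acting on AU-rich or related elements, ordered by their level in GFP, with a point at the geometric mean of each group's 3 libraries and a bar from the lowest to the highest library. Zfp36l2 stands first at 38.2, 28.3 and 24.7 in GFP, TTP and TTP-AA and Zfp36l1 last at 0.0169 to 0.0191.

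None of these 8 proteins reached a log2 difference of 0.5 in TTP vs GFP or TTP-AA vs GFP. Of all 11120 genes, 4.6% did in either direction in TTP vs GFP, 7.6% in TTP-AA vs GFP and 12.2% in TTP-AA vs TTP, so a count of 0 in a list of this size is near the background. Hnrnpd alone did in TTP-AA vs TTP (-0.52), where 4.86% of all genes did downwards, and its span between replicate numbers was 1.41. Tial1 followed at -0.09. Zc3h12a (0.30) and Rc3h1 (0.21) had the largest upward differences. With the library factors solved from the deposited mean normalized count, Hnrnpd was no longer past -0.5. Zc3h12a and Rc3h1 then reached 0.5 upwards, as did 32.2% of all genes. The median of the 8 was 0.05, against -0.01 over all genes.

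Regulators of TTP were described as lists beside the same background. Of 10 genes for kinases of the p38 and MK2 pathway and for PP2A, the phosphatase that removes the MK2 phosphates, 0 of 10 reached 0.5 in either direction in any of the 3 comparisons, against the 4.6%, 7.6% and 12.2% of all genes. Their medians were 0.02 in TTP vs GFP, -0.04 in TTP-AA vs GFP and -0.12 in TTP-AA vs TTP. In TTP-AA vs TTP the largest upward values were 0.28 for Ppp2r1a, a scaffold subunit of PP2A, and 0.28 for Mapkapk3, the kinase MK3. The largest downward values were -0.37 for Map2k6, a kinase that activates p38, and -0.18 for Ppp2cb, a catalytic subunit of PP2A. Of 6 genes for 14-3-3 adaptors, 0 of 6 reached 0.5, a list too short to read against these shares, with medians of 0.05, -0.15 and -0.17. Ywhaq (0.31) and Ywhah (0.10) lay highest and Ywhab (-0.29) and Ywhae (-0.28) lowest in TTP-AA vs TTP.

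The effectors through which TTP acts were listed as 18 genes for CCR4-NOT subunits, 4EHP-GYF proteins, DDX6, decapping factors and XRN1. Of these, 0 of 18 reached 0.5 in any comparison, beside 4.6%, 7.6% and 12.2% of all genes, with medians of 0.02, -0.09 and -0.09. The largest values in TTP-AA vs TTP were 0.31 for Cnot2 and 0.25 for Rqcd1, both subunits of CCR4-NOT. At the other end stood Cnot8, a deadenylase subunit, at -0.44, and Gigyf2, a partner of 4EHP in translational repression, at -0.42.

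Of 12 textbook target mRNAs of TTP, 9 had a mean scaled value of at least 50, and Il10, Csf2 and Cxcl1 did not. Dusp1, which encodes a phosphatase of p38, was lower than GFP in TTP (-0.57) and in TTP-AA (-0.57). Its span between replicate numbers was 1.34. The difference in TTP-AA was no longer past -0.5 with the library factors solved from the deposited mean normalized count. Those factors raised the counts of every list in TTP-AA vs GFP, where 35.3% of all genes then reached 0.5 upwards. Dusp1 was 1 of 9 in TTP vs GFP, where 3.17% of all genes reached -0.5. Ier3, an immediate early gene, was lower in TTP-AA than in GFP (-0.94) and than in TTP (-0.90). With Dusp1 this made 2 of 9 in TTP-AA vs GFP (3.17% of all genes at -0.5 or below) and 1 of 9 in TTP-AA vs TTP (4.86%). With the main library factors none of the 9 was at 0.5 or above in any comparison. Of all genes, 1.43%, 4.42% and 7.32% were, in TTP vs GFP, TTP-AA vs GFP and TTP-AA vs TTP. With the factors solved from the deposited mean normalized count, 5 were in TTP-AA vs GFP and 3 in TTP-AA vs TTP. Of all genes, 35.3% and 32.2% then were. Ier3 alone was then at -0.5 or below in each of them. A list of 9 is too short to read against these shares. Il1b was at -0.14 in TTP-AA vs TTP, and Ptgs2 at 0.46 and Il6 at 0.35 stood at the other end. Tnf, the best known target, differed by -0.25, -0.16 and 0.09 in TTP vs GFP, TTP-AA vs GFP and TTP-AA vs TTP. The list medians were -0.05, 0.08 and 0.07. Dusp1 and Tnf were named after their values were seen.

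Of the macrophage markers, 2 differed widely between the groups in which Zfp36 and Zfp36l2 differed. Adgre1 was at -0.76 in TTP vs GFP, 0.68 in TTP-AA vs GFP and 1.44 in TTP-AA vs TTP. Fcgr1, a receptor for IgG, was at -1.21, -0.39 and 0.83. The others varied less in TTP vs GFP, with Itgam at 0.06, Cd14 at 0.11, Csf1r at -0.04, Cd68 at -0.07 and Lyz2 at -0.29. In TTP-AA vs TTP these lay at 0.14, 0.18, 0.27, 0.10 and 0.47. Of 7 macrophage markers counted, 2 were at -0.5 or below in TTP vs GFP (3.17% of all genes), 1 was at 0.5 or above in TTP-AA vs GFP (4.42%) and 2 were in TTP-AA vs TTP (7.32%). The summed level of the 8 markers was 577942 to 798561 in GFP, 481834 to 657857 in TTP and 662090 to 909114 in TTP-AA, of which Lyz2 alone made up 87.3%. Without Lyz2 the other 7 summed to 73929 to 84064 in GFP, 69385 to 77103 in TTP and 92372 to 106762 in TTP-AA. Fibroblast and lymphocyte markers summed to at most 1.28 and 2.15 in any library. The part of the macrophage markers in the differences of Zfp36 and Zfp36l2 was not tested.

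The genes whose values over the 9 libraries were most like those of each member were found by Euclidean distance of gene-centred log2 values among genes with a mean of at least 100. For Zfp36 they were C230088H06Rik (distance 0.35), Pilrb1 (0.53), an activating immune receptor, and Tsku (0.54), a secreted proteoglycan. In TTP-AA vs GFP these lay at 0.50, 0.74 and 0.59, beside 0.69 for Zfp36. In TTP vs GFP they were at 0.10, -0.25 and 0.16, beside 0.03. In TTP-AA vs TTP they were at 0.41, 0.99 and 0.44, beside 0.66. For Zfp36l2 they were 9930111J21Rik2 (0.23), Map3k1 (0.35), a kinase of MAP kinase cascades, and Arid3a (0.36), a DNA-binding protein. In TTP-AA vs GFP these lay at -0.64, -0.63 and -0.47, beside -0.62 for Zfp36l2. In TTP vs GFP they were at -0.53, -0.22 and -0.31, beside -0.43. In TTP-AA vs TTP they were at -0.11, -0.41 and -0.16, beside -0.19. For Zfp36l1, whose values hardly vary, they were Mcu (0.02), Irak4 (0.05) and Gm11427 (0.05), which are well measured genes with little variation between libraries. Since all values follow from 4 terms and a library factor, likeness here means like group and replicate-number terms. The genes were chosen on these same values, so their closeness is built in.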

How the data were processed

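RNA-seq was made from 9 libraries, 3 each of GFP, TTP and TTP-AA, grouped by the sample titles. Per the methods and labels, the authors aligned trimmed reads with TopHat to GRCm38, counted them per Ensembl gene with HTSeq and fitted DESeq2 1.6.3 with library date and condition as terms. The TopHat2 version in the submitters' processing notes is 2.0.12, whereas the methods name an earlier TopHat version. The deposited signal per gene and library is named normalized counts but holds fitted means of that model without replicate scatter and without a value of 0 in any of its 25494 genes (10 repeated rows counted once). Depth, as fitted sums, was 21482954 to 102613526 counts per library. The comparison tables also hold the authors' fold changes, standard errors, Wald statistics and p-values, which were not used. Only their gene identifiers and mean normalized count were.

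Fitted values were divided by library factors, the median ratio to the gene's geometric mean over the 13159 genes whose mean was 10 or more. Group levels are geometric means, and a log2 difference of 0.5 among the 11120 genes with a mean scaled value of at least 50 was counted as higher or lower, without a test. The limma fit planned for measured values could not be made. Counting errors cover summed fitted counts only. Exon unions, transcripts and overlaps came from GENCODE M21 on GRCm38, which is a later release than the annotation used for counting, and 25165 genes (98.7%) had an exon length. The members, the gene lists and the marker lists were chosen with earlier results of these data known. Genes named are the members, genes overlapping their exons, the 3 nearest in pattern to each member and, in each list, the 2 highest and 2 lowest in TTP-AA vs TTP. Python 3.11.15, numpy 2.4.6 and pandas 2.3.3 were used, and the scripts were tested on simulated data. Alternatives were other scalings, pseudocounts, left-out replicate numbers, lengths and thresholds.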

Additional observations from a re-analysis of the deposited data

How the results depend on the processing

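No paired analysis was possible because the library table holds fitted means with no scatter between replicates. All 90 alternative values of the group levels stayed within the spread over replicate numbers or counting error, and 55 of 60 of the differences within 2 times the counting error. The other 5 came from library factors solved by least squares from the deposited mean normalized count, a poorly conditioned system (singular values 49.0 to 0.199). It gave Zfp36 1.12 in TTP-AA vs GFP and 1.05 in TTP-AA vs TTP, and Zfp36l2 -0.40 in TTP vs GFP, -0.20 in TTP-AA vs GFP and 0.20 in TTP-AA vs TTP. It moved the median of all genes by 0.04, 0.42 and 0.38 in TTP vs GFP, TTP-AA vs GFP and TTP-AA vs TTP. Relative to that median, Zfp36 was at 0.70 in TTP-AA vs GFP and 0.68 in TTP-AA vs TTP, and Zfp36l2 at -0.44, -0.62 and -0.17, values that no scaling of whole libraries can change. Leaving out a replicate number in all groups moved a difference by at most 0.0038, which says nothing of stability since the fit gives that number the same offset in each group. The pseudocounts of 1 and 10 are small beside the levels of Zfp36 and Zfp36l2. Levels of these genes were judged against spreads over replicate numbers of 0.44 to 0.50 on the log2 scale. Many of the tallied values could thus hardly move, so the tallies are no measure of stability.

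The ratio of Zfp36l2 to Zfp36 was 2.96, 2.14 and 1.19 in GFP, TTP and TTP-AA with the length of the longest coding transcript. With coding length it was 2.47 and 1.79 in GFP and TTP and 0.99 in TTP-AA, level within the spread over replicate numbers. Both follow from the lengths alone, since the counts of the whole gene were divided in each case.

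At a threshold of 0.3, genes past it in either direction numbered 3 of the kinases and phosphatase in TTP-AA vs GFP and 1 in TTP-AA vs TTP, 1 and 1 of the 14-3-3 adaptors, and 5 and 5 of the effectors. Of the proteins acting on AU-rich or related elements (the binders) it was 1 in TTP vs GFP and 1 in TTP-AA vs GFP. Of the targets it was 2 in TTP vs GFP, 3 in TTP-AA vs GFP and 3 in TTP-AA vs TTP. Of all genes, 13.6%, 21.9% and 29.7% were past 0.3 in TTP vs GFP, TTP-AA vs GFP and TTP-AA vs TTP. At a threshold of 1 the count was 0 for the binders in TTP-AA vs TTP and 0 for the targets in all comparisons. With a mean of at least 10, Cxcl1 made the targets 2 in TTP-AA vs TTP. With the least-squares factors, an alternative for the lists chosen after seeing the data, counts in TTP-AA vs GFP and TTP-AA vs TTP were 3 and 3 for the kinases and phosphatase, 2 and 1 for the adaptors, 7 and 4 for the effectors, 4 and 2 for the binders, and 6 and 4 for the targets, where 35.3% and 32.2% of all genes reached 0.5 upwards. All genes in these counts were higher except Ier3, which was lower in both comparisons. Hnrnpd was no longer among the binders counted.

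Without measured values per library, the error of these differences beyond counting was not estimated here. The authors' standard errors for their own fold changes were not used.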
